A study of Mus musculus with 10 samples.

Results

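Protein kinase A (PKA) and protein kinase C (PKC) were examined through 9 of the 18193 genes named on the arrays, Prkaca, Prkacb, Prkar1a, Prkar2b, Prkca, Prkcb, Prkcd, Prkce and Prkcz, in the hippocampus of mice that differed in open-field exploration. All probe sets to which the platform annotation gave exactly 1 gene symbol, that of a member, were kept, which came to 26 of the 45037 probe sets besides controls. Of these, 16 had a mean signal above the median of all probe sets and were among the 22518 tested, and the other 10 are given by their signals alone. The mice were untreated, inbred Balb c/J females from Jackson that shared a birth date and were ranked by a composite of several open-field measures taken over several days and lighting conditions. By their labels 5 were High Exploration and 5 Low Exploration mice, each with 1 array of whole hippocampus. The labels give no age, and per the study's methods open-field testing began in young adults. The series carries a design text on the CA1 region of handled mice, which is another experiment, so groups and tissue follow the sample labels. Because both groups are one strain and the mice were selected by behaviour, the labels give no allele or agent by which the groups differ.

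PKA is held inactive by regulatory subunits, and the catalytic subunits are released when cyclic AMP binds the regulatory ones. PKC isoforms are single chains that answer to lipid signals: the classical isoforms need both calcium and diacylglycerol, a calcium-independent class needs diacylglycerol alone, and the atypical isoforms need neither. In the hippocampus both kinase families are known for their part in synaptic plasticity and memory.

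Prkcb and Prkca, the classical PKC genes among the 9, had first probe sets, meaning the one of each gene with the highest mean signal, that lay on opposite sides of 0 between the groups. The stretch just upstream of each start is shown so that their sequences can be set side by side. Both are from RefSeq (GRCm38.p6), cover the 200 bases from 250 to 51 bases before the start and are written 5′ to 3′ on the strand of the gene, with GGGCGG or its reverse complement CCGCCC in capitals. The Prkcb stretch lies at chr7:122288875-122289074 on the + strand and that of Prkca at chr11:108343939-108344138 on the - strand.
Prkcb: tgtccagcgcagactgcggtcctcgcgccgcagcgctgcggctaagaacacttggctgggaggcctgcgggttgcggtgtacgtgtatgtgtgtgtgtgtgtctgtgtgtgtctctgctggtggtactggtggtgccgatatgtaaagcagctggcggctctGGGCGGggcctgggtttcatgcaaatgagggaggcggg
Prkca: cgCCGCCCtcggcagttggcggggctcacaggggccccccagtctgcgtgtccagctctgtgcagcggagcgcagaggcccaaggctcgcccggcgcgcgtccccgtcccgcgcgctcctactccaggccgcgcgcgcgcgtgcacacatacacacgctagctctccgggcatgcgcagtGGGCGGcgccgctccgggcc
The Prkcb stretch had 62.5% G and C and 1 match to GGGCGG, and the Prkca stretch had 76.5% and 2 matches. Over the 32851 windows of the same kind the median was 51.5% G and C, and 24.6% held a match on either strand. Neither stretch held TGACGTCA, the palindromic cyclic AMP response element that 0.828% of windows held, or TATAAA, which 9.14% held on either strand. The windows end 51 bases before the start, so matches closer to the start were not sought and cannot be judged. These are matches of letters and not tested sites. Of the 9 genes, 8 had such a window, all but Prkce.

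None of the 16 tested member probe sets passed limma at an adjusted p of 0.05, against 3 of all 22518 tested, or 0.0133%. The smallest adjusted p of a member was 0.0610, for the first probe set of Prkcb. At an unadjusted p under 0.05 there were 2 member probe sets with higher signal in High Exploration (Prkaca and Prkcb) and 6 with lower signal (a pair for Prkar2b and 1 each for Prkca, Prkcb, Prkce and Prkcz), while over all tested probe sets 9.67% were higher and 20.5% lower by the same rule. Groups that did not overlap, with every array of one group above every array of the other, were seen for 2 higher and 2 lower member probe sets, against 2.14% and 6.69% of all tested. With the probe sets under the filter included, the members had 2 higher and 3 lower of 26, against 1.17% and 4.84% of all 45037. As deposited, the median difference over all tested probe sets was -0.31 on the log2 scale, and that over the 16 tested members was -0.01, with 8 higher and 8 lower. All 10 member probe sets under the filter had the lower mean in High Exploration. Of all tested probe sets 61.9% were lower too, and without the filter the median difference over all probe sets was -0.47. The share lower among all probe sets under the filter was not counted.

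**Figure D1:**
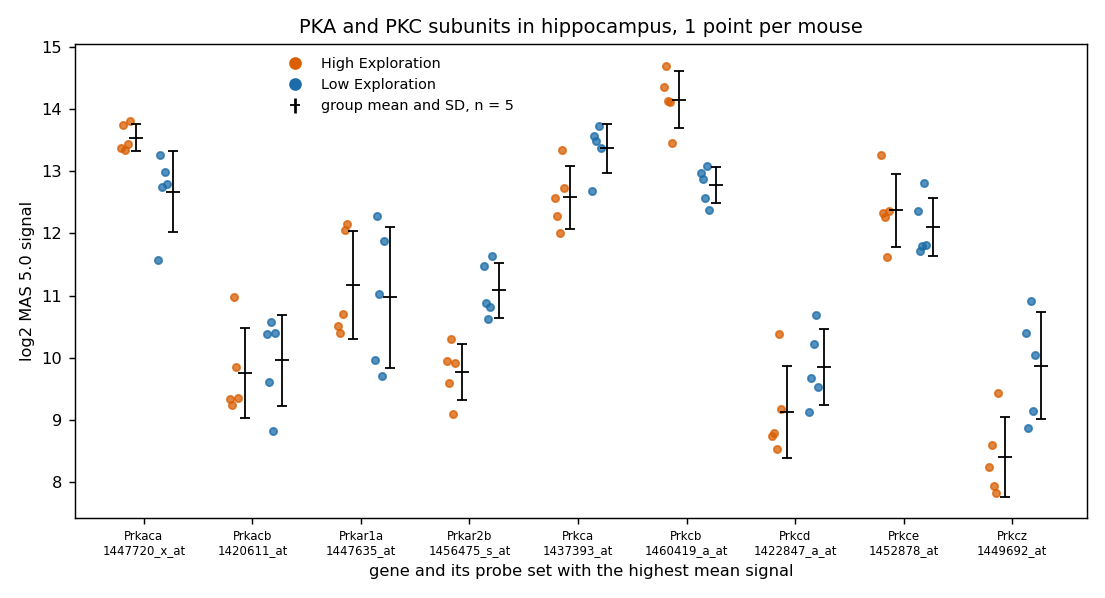
The log2 MAS 5.0 signal of the first probe set of each gene is plotted for 5 High Exploration and 5 Low Exploration mice, 1 point per mouse, with the group mean and SD. The groups are apart for Prkaca and Prkcb, where High Exploration is above, and for Prkar2b, where it is below (9.77 against 11.09), and the points of the other 6 genes overlap.

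Prkaca encodes the main catalytic subunit of PKA. Its first probe set (1447720_x_at) read 13.37, 13.74, 13.35, 13.44 and 13.81 on the log2 scale in the High Exploration mice and 11.57, 13.27, 12.75, 12.98 and 12.80 in the Low Exploration mice. All 5 High Exploration arrays were above all 5 Low Exploration arrays, although the lowest High and the highest Low value were close, and the Low group was spread by 1 mouse at 11.57. The means were 13.54 ± 0.22 and 12.67 ± 0.65 (SD, n = 5 each), a difference of 0.87 with an SE of 0.36, or 1.83-fold, that did not pass (limma adjusted p = 0.134). With quantile normalization it was 0.33 and the groups overlapped, and with median centring and equal hybridisation controls it was 1.41 and 1.48 with the groups apart. In a tissue sample, fewer cells of a type and less RNA per cell cannot be told apart, here or for any member. The suffix x marks a probe set with probes that also match other transcripts, so this value is less certain as a reading of Prkaca. The suffix s marks probes shared by several transcripts. It belongs to the first Prkar2b and the second Prkce probe sets, so a like limit holds there. Suffix x or s also occurs among the pathway genes named below (Prkar1b, Gnas, Adcy7 and Prkd1). The second Prkaca probe set (1450519_a_at) ranged from 6.25 to 9.24 in High and from 5.98 to 8.98 in Low Exploration, with wide overlap (difference 0.71, limma adjusted p = 0.469).

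Prkacb encodes the other catalytic subunit found in brain. Probe set 1420611_at, its first, read 9.33, 9.24, 10.97, 9.84 and 9.35 in High and 10.38, 9.61, 10.57, 8.82 and 10.39 in Low Exploration mice. The highest value of all was in a High Exploration mouse and the lowest in a Low Exploration mouse, so the groups were mixed. The means were 9.75 ± 0.72 and 9.95 ± 0.74, and the difference of -0.21 (SE 0.45) was within the spread between mice (limma adjusted p = 0.773). Its sign turned when arrays were centred on their medians (0.33) or scaled to equal hybridisation controls (0.40). A pair of further probe sets under the filter differed by -0.09 (1457197_at) and -1.20 (1420610_at).

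The regulatory subunits decide where PKA sits and how much cyclic AMP it takes to release the catalytic subunit. Prkar2b, the type II beta subunit that neurons use to tether PKA to anchoring proteins, had the smallest limma p of the PKA genes. Its first probe set (1456475_s_at) read 9.94, 9.59, 10.30, 9.10 and 9.92 in High and 11.48, 10.88, 10.63, 10.82 and 11.63 in Low Exploration mice. Every High Exploration mouse was below every Low Exploration mouse. The means were 9.77 ± 0.45 and 11.09 ± 0.44, a difference of -1.32 (SE 0.35), or 2.49-fold lower in High Exploration, with a limma adjusted p of 0.0654. The second probe set (1438664_at) read 8.18, 9.51, 9.97, 8.53 and 8.996 in High and 10.84, 10.19, 10.23, 9.99 and 10.89 in Low Exploration, again with no overlap. Its means were 9.04 ± 0.72 and 10.43 ± 0.41, and the difference was -1.39 (SE 0.40, limma adjusted p = 0.0691). Both probe sets were designed from the same sequence record, so they do not count as independent readings. One more under the filter (1430640_a_at) differed by -0.90.

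The size of the Prkar2b difference moved with the scaling. With quantile normalization the first probe set differed by -1.39 and the groups stayed apart, while the second differed by -1.29 and the groups overlapped. With median centring the first differed by -0.78 and with equal hybridisation controls by -0.71. There the second differed by -0.85 and -0.78, and the groups overlapped for both. The direction was the same under these scalings, and leaving out any 1 array gave differences of the first between -1.45 and -1.15.

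Prkar1a encodes the type I alpha subunit, which is used in nearly all tissues. On its first probe set (1447635_at) the mice read 10.51, 10.39, 10.70, 12.06 and 12.16 in High and 9.96, 12.28, 11.03, 9.70 and 11.89 in Low Exploration mice. Both groups held high and low mice, and the means of 11.16 ± 0.87 and 10.97 ± 1.14 differed by 0.19 (SE 0.57, limma adjusted p = 0.835). Array weights (-0.04) and leaving out 1 array (-0.12 to 0.52) turned the sign. A second probe set (1452032_at) read 11.84, 10.00, 9.69, 11.20 and 10.21 in High and 9.41, 10.83, 3.96, 9.42 and 9.72 in Low Exploration mice. The value of 3.96, in Low Exploration replicate 3, was far below the other 9. The difference of 1.92 (SE 1.02, limma adjusted p = 0.217) was 0.74 without that array. The last probe set (1425550_a_at) was under the filter and differed by -0.35.

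Among the classical PKC genes, Prkcb is a major isoform of forebrain neurons and is spliced into proteins with different C termini. The signals of its first probe set (1460419_a_at) were 14.37, 14.70, 14.13, 14.12 and 13.46 in High and 12.97, 12.88, 12.57, 13.08 and 12.39 in Low Exploration mice. Every High Exploration mouse was above every Low Exploration mouse, and the lowest High value came from replicate 5. The means were 14.16 ± 0.46 and 12.78 ± 0.29, a difference of 1.38 (SE 0.33), or 2.60-fold, with a limma adjusted p of 0.0610. Without High Exploration replicate 5 the difference was 1.55 and passed (limma adjusted p = 0.0430). It also passed with median centring (1.92, limma adjusted p = 0.0498) and with array weights (1.44, limma adjusted p = 0.0401). It was 0.85 with quantile normalization, where the groups still did not overlap, and 0.73 with the level of the hybridisation controls as a covariate (limma adjusted p = 0.152 and 0.671).

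The other Prkcb probe sets did not follow the first. The second (1423478_at) read 9.20, 10.41, 10.41, 9.57 and 9.76 in High and 9.77, 9.83, 9.56, 10.01 and 8.94 in Low Exploration mice, which overlapped, with a difference of 0.25 (SE 0.36, limma adjusted p = 0.653). The last (1443144_at) read 6.33, 6.73, 7.19, 7.43 and 8.11 in High and 8.32, 8.19, 8.53, 7.70 and 8.81 in Low Exploration mice. Here the High Exploration mice were the lower ones, and the groups overlapped through a single pair of mice, at 8.11 and 7.70. The means were 7.16 ± 0.68 and 8.31 ± 0.41, and the difference was -1.15 (SE 0.39, limma adjusted p = 0.0887). It was -0.62 with quantile normalization or median centring and -0.55 with equal hybridisation controls. The mean of the log2 signals of the 3 probe sets differed by 0.16 between the groups (limma adjusted p = 0.729). Which splice forms each probe set reads was not tested.

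**Figure D2:**
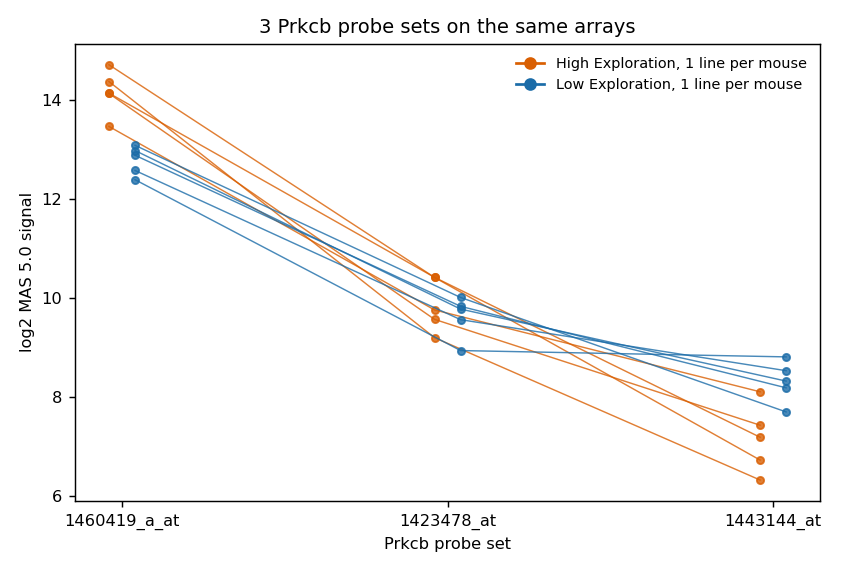
The log2 MAS 5.0 signals of the 3 Prkcb probe sets are plotted with 1 line per mouse, for 5 High Exploration and 5 Low Exploration mice. The High Exploration lines start above the others at the first probe set (14.16 against 12.78 on average), mix with them at the second and end mostly below them at the last (7.16 against 8.31).

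Whether probe sets of 1 gene differed unequally was asked within arrays, where a constant scaling of the array cancels. A difference in the spread of signals between arrays does not cancel, since the first probe set always has the higher mean. At a trimmed mean of 500, array medians were 143 to 205 in High and 227 to 273 in Low Exploration. The study reported a larger variance of log signals in the more active mice. A difference in 3′ to 5′ signal between the groups does not cancel either, if the probe sets lie at different positions in the transcript. The Gapdh signal at the 3′ end was above that at the 5′ end by 4.72 ± 0.48 in High and 3.72 ± 0.23 in Low Exploration (exact permutation p = 0.0159). The parts of the spread and of this difference in the pairs were not tested. Over 7 pairs, each of the first probe set of a gene and another tested one, 0 passed Benjamini-Hochberg adjustment of the p of an exact permutation test (2-sided, every assignment of the arrays to groups), and 3 had an unadjusted p under 0.05. The first Prkcb probe set was above the second by 4.29 ± 0.62 in High and by 3.15 ± 0.18 in Low Exploration mice, with ranges of 3.70 to 5.17 and 3.01 to 3.45 that did not overlap. This difference of 1.13 had an exact permutation p of 0.00794, the smallest this design allows, and an adjusted p of 0.0556 (exact permutation). Against the last Prkcb probe set the values were 7.00 on average in High (5.35 to 8.04) and 4.47 in Low Exploration (3.58 to 5.38), a difference of 2.53 (exact permutation p = 0.0159, adjusted p = 0.0556). Both Prkcb pairs passed without High Exploration replicate 5 (adjusted p = 0.0278 by the exact permutation test) and with a pseudocount. With quantile normalization they were smaller, at 0.42 and 1.48 (adjusted p = 0.278 and 0.0556 by the exact permutation test). With group means removed, the first and last Prkcb probe sets ran against each other over the 10 arrays (r = -0.88, Spearman's coefficient = -0.93), which share the arrays and their scaling.

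Prkca encodes the classical isoform found in most tissues. Probe set 1437393_at, its first, read 12.57, 12.28, 12.00, 13.34 and 12.73 in High and 12.69, 13.56, 13.48, 13.73 and 13.38 in Low Exploration mice. All 5 High Exploration values lay below all but 1 of the Low group, and the overlap came from Low Exploration replicate 1 at 12.69, under a pair of High Exploration mice. The means were 12.59 ± 0.51 and 13.37 ± 0.40, a difference of -0.78 (SE 0.35, limma adjusted p = 0.157). It was -1.31 with quantile normalization, -0.25 with median centring and -0.18 with equal hybridisation controls. The second probe set (1450945_at) read from 7.04 to 8.48 in High and from 5.89 to 9.04 in Low Exploration, so that the High values lay within the Low range, with a difference of 0.39 (limma adjusted p = 0.635). A further one under the filter (1427562_a_at) differed by -1.13. Between the first pair the within-array difference was -1.17 (exact permutation p = 0.0873, adjusted p = 0.153).

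Prkcd and Prkce encode the calcium-independent isoforms that diacylglycerol activates. Prkcd is known in the mouse brain for strong expression in thalamus. Its first probe set (1422847_a_at) read 8.74, 8.79, 8.53, 10.37 and 9.17 in High and 9.13, 9.67, 10.22, 10.69 and 9.52 in Low Exploration mice. High Exploration replicate 4 stood among the higher Low Exploration values while the rest of its group read 9.17 or less. The means were 9.12 ± 0.74 and 9.84 ± 0.61, a difference of -0.72 (SE 0.43, limma adjusted p = 0.263), and a second probe set under the filter (1442256_at) differed by -0.71. The summed linear signal of Tcf7l2, Lef1 and Zic1, markers of thalamus and habenula, was 4467 to 11264 in High and 1536 to 4216 in Low Exploration, without overlap. The markers did not move together, since Zic1 differed by 1.86 (limma adjusted p = 0.0642), while Tcf7l2 (-0.27) and Lef1 (-0.41, under the filter) overlapped and were lower on average, as Prkcd was. The part of carried-over thalamus in these values was not tested.

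Prkce is abundant in brain and sits at nerve terminals. Signals of its first probe set (1452878_at) were 13.26, 12.32, 12.27, 11.63 and 12.36 in High and 12.36, 11.72, 11.80, 12.81 and 11.82 in Low Exploration mice. The groups overlapped, and the difference of 0.27 (SE 0.38, limma adjusted p = 0.644) became -0.20 with quantile normalization. The second (1437861_s_at) read 9.58, 9.56, 8.96, 9.38 and 10.17 in High and 9.71, 11.41, 12.08, 10.64 and 11.85 in Low Exploration mice. All but 1 of the Low Exploration mice were above the whole High group, and the exception was replicate 1 at 9.71. The means were 9.53 ± 0.43 and 11.14 ± 0.97, a difference of -1.61 (SE 0.46), or 3.05-fold lower, with a limma adjusted p of 0.0690. With array weights it passed (-1.72, limma adjusted p = 0.0412), among 2186 probe sets that passed over the whole table. It was -1.07 with median centring, -1.001 with equal hybridisation controls and -0.84 with those controls as a covariate (limma adjusted p = 0.137, 0.157 and 0.746). Within arrays the first was above the second by 2.84 ± 0.65 in High and 0.96 ± 1.35 in Low Exploration (difference 1.87, exact permutation p = 0.0317, adjusted p = 0.0741). Probe sets 1449956_at and 1437860_at, under the filter, differed by -0.34 and -0.62, and the latter shares a sequence record with 1437861_s_at.

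Prkcz is the atypical isoform among the 9 genes. In brain an internal promoter of the gene also gives PKMzeta, a form without the regulatory domain. Its first probe set (1449692_at) read 8.24, 8.59, 7.93, 7.83 and 9.42 in High and 10.39, 8.87, 10.92, 9.14 and 10.04 in Low Exploration mice. High Exploration mice were mostly lower, with replicate 5 at 9.42 above a pair of Low Exploration mice. The means were 8.40 ± 0.65 and 9.87 ± 0.86, a difference of -1.47 (SE 0.46, limma adjusted p = 0.0796), which was -0.93 with median centring and -0.86 with equal hybridisation controls. Probe set 1454902_at, under the filter, read 6.26, 6.70, 6.36, 7.02 and 6.42 in High and 8.86, 7.12, 7.38, 8.43 and 8.27 in Low Exploration mice, which did not overlap. Its means of 6.55 ± 0.31 and 8.01 ± 0.73 differed by -1.46, and the remaining one (1418085_at) differed by -0.09. Neither reading separates the full-length form from PKMzeta, since the positions of the probes were not used here.

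**Figure D3:**
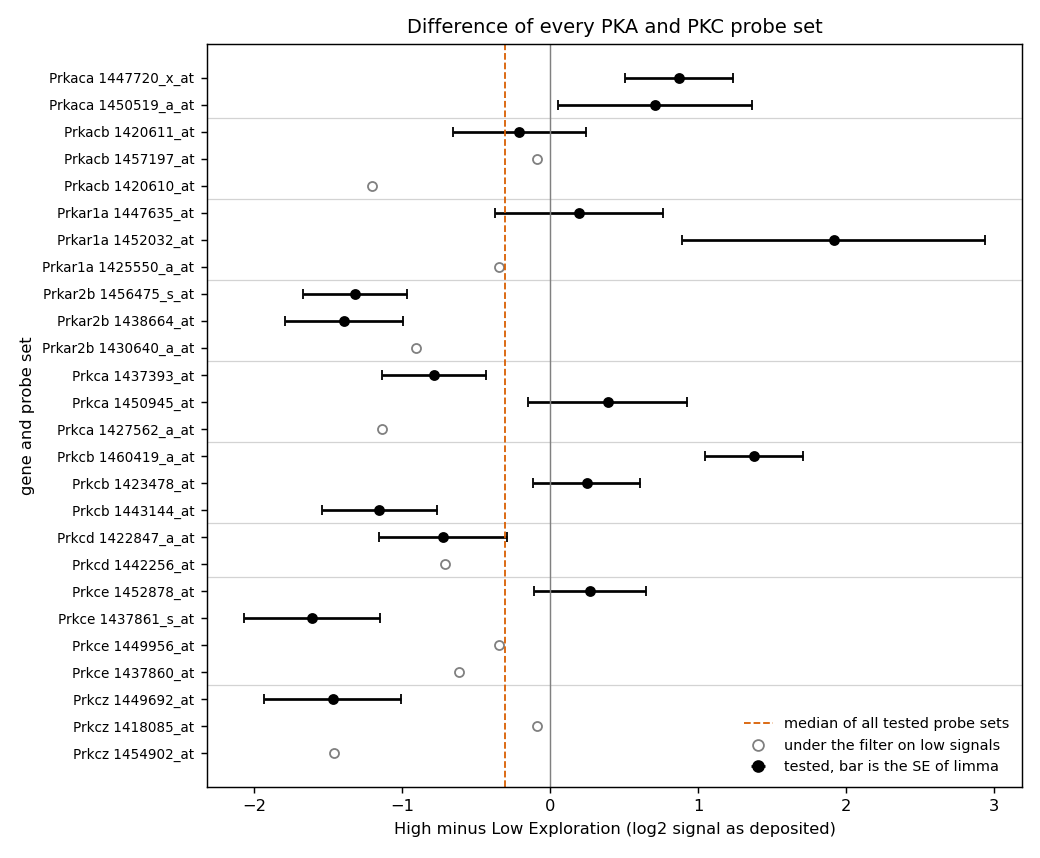
The difference between High and Low Exploration in log2 signal as deposited is plotted for all 26 probe sets, grouped by gene. Filled points are the 16 tested ones with the SE of limma, open points are the 10 under the filter, all left of 0, and the dashed line is the median of all tested probe sets (-0.31). Without the filter the median over all probe sets was -0.47. Prkcb, Prkca and Prkce have tested points on both sides of 0.

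Of the 6 genes with 2 or more tested probe sets, 3 had probe sets of opposite sign (Prkca, Prkcb and Prkce). The share among all other genes with 2 or more tested probe sets was not counted, so this is not a trait of the members. The Prkar2b pair differed least between the groups, by 0.08 within arrays (exact permutation p = 0.865, adjusted p = 0.873), and ran together over the 10 arrays with group means removed (r = 0.61, Spearman's coefficient = 0.59). Over the 7 pairs r ranged from -0.88 to 0.61 with a median of 0.12. When the tested probe sets of a gene were averaged, Prkar2b differed by -1.35 (limma adjusted p = 0.0653). Prkce differed by -0.67, Prkar1a by 1.05 and Prkaca by 0.79 (limma adjusted p = 0.187, 0.271 and 0.185), and Prkca by -0.20. The Prkar1a average includes the value of 3.96 in Low Exploration replicate 3. Prkcz had 1 tested probe set, so its -1.47 is not an average.

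**Figure D4:**
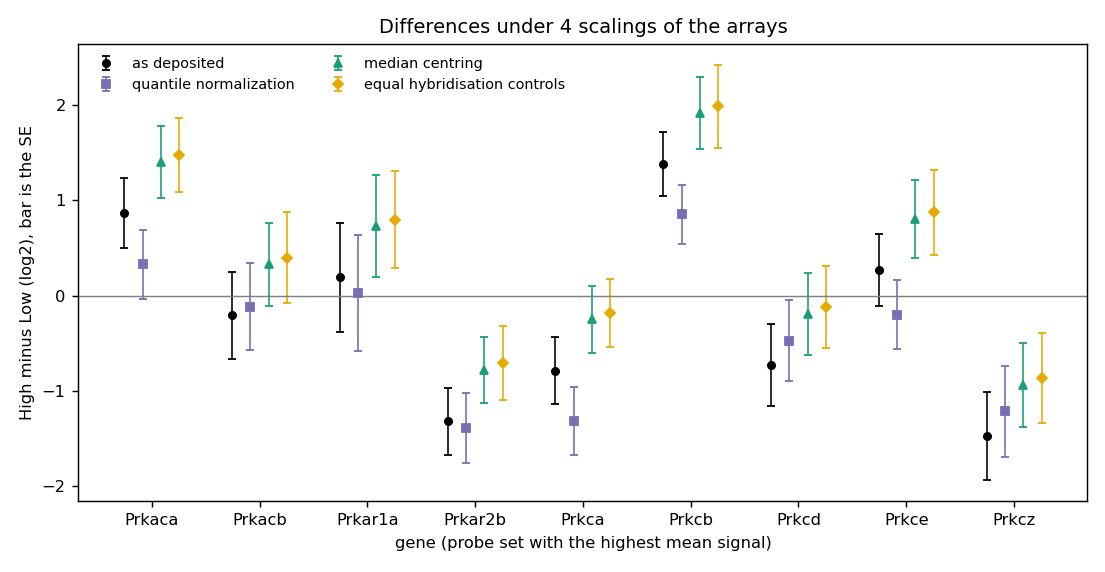
The difference between High and Low Exploration in log2 signal, with the SE of limma, is plotted for the first probe set of each gene as deposited and under 3 other scalings of the arrays. Prkcb (0.85 to 1.99), Prkaca and Prkar1a stay above 0 in all 4. Prkar2b (-1.39 to -0.71), Prkca, Prkcd and Prkcz stay below it, while Prkacb and Prkce cross 0.

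The scalings also moved the table as a whole. The median difference over all tested probe sets was -0.01 with quantile normalization, 0.23 with median centring and 0.30 with equal hybridisation controls. Read against these medians, the first probe sets of Prkcb, Prkaca and Prkar1a were above under each of the 4 scalings. Those of Prkar2b, Prkca, Prkcd and Prkcz were below under each, and those of Prkacb and Prkce changed side. Transcripts added during preparation differed as well. The hybridisation controls read 13.63 ± 0.31 in High and 14.24 ± 0.29 in Low Exploration (exact permutation p = 0.0159), and the poly-A controls 12.49 ± 0.47 and 14.12 ± 0.44 (exact permutation p = 0.00794). The Gapdh signal at the 3′ end was above that at the 5′ end by 4.72 ± 0.48 and 3.72 ± 0.23 (exact permutation p = 0.0159). The part of these in the members' differences was not tested beyond the scalings and the covariate given above.

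No marker of hippocampal neurons read 0 in any array. That also held for the red blood cell list, so it does not show presence. The summed linear signal of 5 pyramidal neuron markers was 16414 to 21990 in High and 13441 to 20635 in Low Exploration, and that of 4 granule neuron markers was 23064 to 66475 and 10755 to 45755. Within the pyramidal list Slc17a7 was lower in High Exploration (-2.11, limma adjusted p = 0.0644) and Nrn1 (0.96) higher, both with groups apart, while Neurod6 differed by 1.18, Wfs1 by 0.11 and Camk2a by -0.01. The 5 astrocyte markers summed to 39587 to 68111 and 19886 to 37122, without overlap. Of these Gja1 differed by 1.25 with groups apart, whereas Aqp4 (0.75), Aldh1l1 (0.48, under the filter), Gfap (0.36) and Slc1a3 (-0.16) overlapped. The 5 microglial markers summed to 9499 to 31794 and 24098 to 45680. Sums of interneuron markers were 9250 to 28090 and 7087 to 11852, of oligodendrocyte markers 42823 to 91918 and 35426 to 101359, and of choroid plexus markers 20060 to 34094 and 15802 to 26043. Those of endothelial cells (604 to 1477 and 1013 to 2979) and red blood cells (65.8 to 245 and 189 to 368) overlapped too. None of the marker genes tested passed limma, and the part of cell composition in the members' values was not tested.

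Genes that act with the kinases were described from 8 lists. Of 81 gene symbols listed, 74 were on the array, 58 were tested and 0 passed limma, with 9 higher and 5 lower in High Exploration at an unadjusted p under 0.05, against 9.67% and 20.5% of all tested probe sets. By sign 33 were higher and 25 lower, with a median of 0.13 against -0.31 over all tested probe sets. Groups were apart for 3 higher (Pkia, Akap6 and Akap12) and 2 lower (Pde1c and Prkd3), against 2.14% and 6.69% of all tested. Each list gene stood by its probe set with the highest mean signal, whereas all tested probe sets include weaker ones of the same genes. These counts, shares and medians are therefore of unlike sets, and no shift of the lists can be read from them.

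On the PKA side, 3 of 4 further subunits and inhibitors were higher, with a median of 0.62. Pkia, a peptide that blocks the catalytic subunit, read 12.37 ± 0.42 and 11.64 ± 0.35, a difference of 0.73 (SE 0.33, limma adjusted p = 0.161). Prkar1b, the type I beta subunit of neurons, differed by 1.29 (limma adjusted p = 0.186). Among 12 anchoring proteins, which hold PKA at membranes and organelles, 6 were higher and 6 lower. Akap13, an anchoring protein of many tissues, differed by 1.61 (SE 0.45, limma adjusted p = 0.0681) and Akap11 by 1.00 (limma adjusted p = 0.102). With median centring Akap13 passed (2.15, limma adjusted p = 0.0498), among 906 probe sets that passed over the whole table.

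Of 8 genes of cyclic AMP synthesis 4 were higher and 4 lower. Gnas, the stimulatory G protein, differed by 1.19 and Adcy7, an adenylyl cyclase, by 0.87 (limma adjusted p = 0.145 and 0.160). Of 11 phosphodiesterases, which break cyclic AMP down, 7 were higher and 4 lower. Those with the smallest p were lower: Pde1c, which calcium and calmodulin activate, read 8.55 ± 0.53 and 9.94 ± 0.71 without overlap (difference -1.39, limma adjusted p = 0.0730), and Pde7a differed by -1.40 (limma adjusted p = 0.0956).

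On the PKC side, Prkd3, a protein kinase D that acts downstream of diacylglycerol and PKC, read 8.46 ± 0.35 in High and 9.98 ± 0.55 in Low Exploration without overlap. The difference of -1.52 (SE 0.36) had a limma adjusted p of 0.0593. Prkd1, of the same family, differed by 0.85 (limma adjusted p = 0.248). Phospholipase C, which makes diacylglycerol, and the Gq proteins that activate it had 6 of 7 genes higher and a median of 0.54. Plcb1 differed by 1.59 (SE 0.47, limma adjusted p = 0.0717) and Plcb4 by 1.20 (limma adjusted p = 0.125). With median centring, where 906 probe sets passed over the whole table, Plcb1 passed (2.13, limma adjusted p = 0.0498). Diacylglycerol kinases, which remove the lipid, had 4 of 6 lower and a median of -0.61. Of these Dgkq differed by -1.06 and Dgkh by 0.72 (limma adjusted p = 0.0857 and 0.189). Substrates and partners had 3 of 6 higher. Creb1, a transcription factor that PKA phosphorylates, differed by -0.80 and Add1, a cytoskeletal protein that PKC phosphorylates, by -1.43 (limma adjusted p = 0.176 and 0.178).

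The genes most alike to the leading PKA and PKC members were sought over the 10 arrays, after quantile normalization and with group means removed. Among 18076 probe sets of other genes, those most alike to the first Prkar2b probe set were Wfdc18 (r = 0.96, Spearman's coefficient = 0.96), Mybbp1a (r = 0.95, Spearman's coefficient = 0.98) and Wdr20rt (r = 0.92, Spearman's coefficient = 0.83). For the first Prkcb probe set, among 18075, they were Rapgef5 (r = 0.96, Spearman's coefficient = 0.96), Nefl (r = 0.95, Spearman's coefficient = 0.95) and Sbf2 (r = 0.94, Spearman's coefficient = 0.88). Without the 2 arrays farthest from the median of the member, r over the other 8 was 0.86 to 0.94 for the first set and 0.90 to 0.93 for the second. These are the highest of many values over few arrays that share their scaling, and are given as a description.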

How the data were processed

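Per the labels, hippocampal RNA came off Qiagen columns (the study's methods, which cover several experiments, name Qiagen columns or Trizol), carried a biotin label and was read on 1-colour Affymetrix mouse arrays. How it was amplified is not settled here, since the labels name the maker's standard protocol and the study's methods name double amplification. The authors deposited MAS 5.0 signals on a linear scale, with each array scaled so that its mean, trimmed by 2% at both ends, is 500 and with no normalization of the distribution. Constant scaling makes other probe sets read lower where abundant transcripts read higher.

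Of 45101 probe sets, 64 controls were set apart. The annotation gave 1 symbol to 34958 probe sets, several to 932 and none to 9211. Through Entrez identifiers 34754 matched the RefSeq gene table, and 0 symbols changed. Log2 signals were compared with limma 3.58.1 (lmFit, eBayes; R 4.3.3) over all 10 arrays, among the 22518 probe sets in the upper part of the 45037 by mean signal, split at the median, with Benjamini-Hochberg adjustment over all of them and a threshold of 0.05. For single values, all assignments of arrays to groups were enumerated (exact permutation test, 2-sided). The number of arrays limits the precision. On simulated data for this comparison over 22518 features, 50 changes were set at each of 4 sizes, and limma found 1 of those of log2 size 1, 24 where the size was 2, 38 where it was 3 and 46 where it was 4, with 4 false calls.

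All 9 genes are named, each first by its probe set of highest mean signal. Their other probe sets are named where groups do not overlap, where limma passes or where the sign is opposite, and those named beyond this were chosen after their values were seen. Of each pathway list the 2 genes with the smallest p are named, by their probe set with the highest mean, with Akap6, Akap12 and the cell type markers given singly added after their values were seen. Members and lists were chosen with earlier results of these data known. Alternatives were quantile normalization, median centring, scaling to equal hybridisation controls, those controls as a covariate, a pseudocount of 23.0 (a low percentile of all signals), no filter, array weights, gene averages and leaving out each array. One listed gene is not reported here.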

Additional observations from a re-analysis of the deposited data

Results flagged for a closer look

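In 2 of 52 groups of 5 signals, 1 per member probe set and exploration group, a single mouse stood apart from the rest of its group by more than Dixon's critical share of the range, and chance flags about 1 in 20 groups. For Prkar1a (1452032_at) the gap took up 0.794 of the range of the Low Exploration group, where replicate 3 read 3.96 and the others 9.41 to 10.83. For Prkacb (1420610_at, under the filter) the share was 0.743, with Low Exploration replicate 5 at 8.76 and the others at 7.69 to 7.97.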

How the results depend on the processing

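Member probe sets that passed limma numbered 0 as deposited, 1 with median centring, 4 with array weights (Prkcb 1460419_a_at, the Prkar2b pair and Prkce 1437861_s_at) and 0 to 1 when 1 array was left out. Over the whole table the count was 3 as deposited, 906 with median centring (830 higher and 76 lower), 0 with equal hybridisation controls, 0 with those controls as a covariate, 341 with a pseudocount (41 higher and 300 lower), 32 without the filter, 2186 with array weights (612 higher and 1574 lower) and 2 to 1042 when 1 array was left out, the highest without High Exploration replicate 5, followed by 17 without Low Exploration replicate 1 and 11 without High Exploration replicate 3. Tested members with groups apart numbered 1 higher and 1 lower with quantile normalization, and 0 lower with median centring or equal hybridisation controls. Leaving out 1 array gave 2 higher each time and 2 to 5 lower (5 without High Exploration replicate 5 and 4 without Low Exploration replicate 1). The shares of all tested probe sets with groups apart under these settings are not given here. Groups of fewer arrays come apart more easily, so no trait of the members can be read from these counts. Of the probe set pairs within arrays, 2 passed with a pseudocount and 0 to 2 without 1 array, and 2 pathway genes passed with median centring. Signs turned for Prkce 1452878_at with quantile normalization (-0.20), the control covariate (-0.053) and the gene average (-0.67), for Prkacb 1420611_at with median centring (0.33) and equal hybridisation controls (0.40), and for Prkcb 1423478_at with the covariate (-0.30). They also turned for Prkar1a 1447635_at with array weights (-0.035) and without 1 array (-0.12 to 0.52). The Prkaca pair gave -0.84 with quantile normalization and -0.46 to 0.71 without 1 array, and the Prkar2b pair -0.093 and -0.18 to 0.24. The causes were not tested. Another 12 values passed the threshold in an unchanged direction. The other 490 values under alternatives kept their direction and their side of the threshold, or were counts that changed little or not at all. The labels give each array its own number and share none between the groups. The replicate numbers used here are not from the labels and follow the order of the samples within each group. No paired analysis was possible because the arrays of both groups are of different mice with no common number. With 5 arrays a group, a threshold that is missed does not show that the groups are alike.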
